A study of Homo sapiens with 6 samples.

Results

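The E2F and DP genes encode transcription factors, some of which Rb holds in check. Their mRNA was followed here in ZR-75-1, an ER-positive human breast cancer cell line with luminal features. The genes were taken by name, with the Ensembl identifier of each row of the count table matched to a symbol: E2F1 to E2F8, TFDP1 and TFDP2. This gave 10 genes of 60656 in the table, each with 1 row, and all 10 had enough counts to be tested. The 6 libraries came from cells labelled as the parent line, with no edited gene, 3 grown with DMSO, the solvent control, and 3 with 500 nM abemaciclib, a CDK4/6 inhibitor, both for 4 days in the same medium. Both groups are a single cultured line, and the RB1 knockout cells of the study were not analysed here.

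E2F factors bind DNA at the promoters of genes needed for S phase, most of them as a dimer with a DP protein, TFDP1 or TFDP2. E2F1, E2F2 and E2F3 are classed as activators, and hypophosphorylated Rb binds them and blocks them. E2F4 and E2F5 work mainly as repressors together with the Rb relatives p107 (RBL1) and p130 (RBL2), E2F6 represses without any pocket protein as part of a Polycomb-type complex, and E2F7 and E2F8 are atypical repressors that need neither DP nor Rb. Several of these genes are themselves E2F targets. CDK4/6 phosphorylate Rb, so a CDK4/6 inhibitor acts upstream of the members that Rb binds.

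Counts per library ran from 3317860 to 4013156, and levels are given as CPM, counts scaled to library size with TMM. A count of 0 allows up to 3 counts, worth 0.740 to 0.909 CPM depending on the library, for counting error only. The kit reads the 3′ end of each polyadenylated transcript, so a CPM value does not scale with transcript length. Other differences between genes, such as exons shared with a neighbour, were not corrected, so levels set side by side between genes are approximate. All 8 luminal markers were detected, with a summed level of 7280 to 7880 CPM with DMSO and 10800 to 12300 CPM with abemaciclib. The markers did not move together. By the test described below, TFF1, ESR1 and KRT19 (3 of 8) rose, against 12.5% of all genes tested. KRT18 (1 of 8) fell, against 13.3%, and the other 4 did not pass. Exons of KRT18 overlap those of KRT8, another of the markers, on the opposite strand over 302 bases. Since the strand setting of the counting is not given, the values of both are uncertain. Of 9 markers of basal, fibroblast, leukocyte and endothelial cells, 8 were at 0 in every library, and the ninth, COL1A1, had 13.1 ± 2.7 CPM with DMSO and 12.5 ± 2.7 CPM with abemaciclib (SD, n = 3 in each group). The study's methods call the libraries of a group independent biological replicates.

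Both classes, activators and repressors, held genes that fell. With abemaciclib, E2F1, E2F2, E2F7, E2F8 and TFDP1 fell, E2F3 rose, and E2F4, E2F5, E2F6 and TFDP2 did not pass the test. Calls are from the quasi-likelihood test of edgeR, with P values adjusted by Benjamini–Hochberg over 10863 genes and a threshold of 0.05, and SE stands for standard error. So 5 of the 10 genes were lower, against 13.3% of all genes tested, 1 was higher, against 12.5%, and 6 changed in either direction, against 25.7%. Of these, E2F7 and E2F8 passed the filter on low counts only through the DMSO libraries. With abemaciclib E2F7 had 12, 25 and 6 counts and E2F8 had 3, 0 and 8. With at least 10 counts required in every library neither was tested, and 3 genes and 0 repressors were lower. The same 5 genes had every abemaciclib library below every DMSO library, an arrangement found in 20.1% of all genes tested. E2F3 alone had every abemaciclib library above every DMSO library, as 19.1% of all genes tested did, so 6 of 10 genes had groups that did not overlap, against 39.1%. The median log2 fold change over the 10 genes was −0.27, beside −0.0018 over all genes tested. In libraries of whole cultures, a lower level in each cell and fewer cells in the phase that expresses a gene cannot be told apart.

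**Figure D1:**
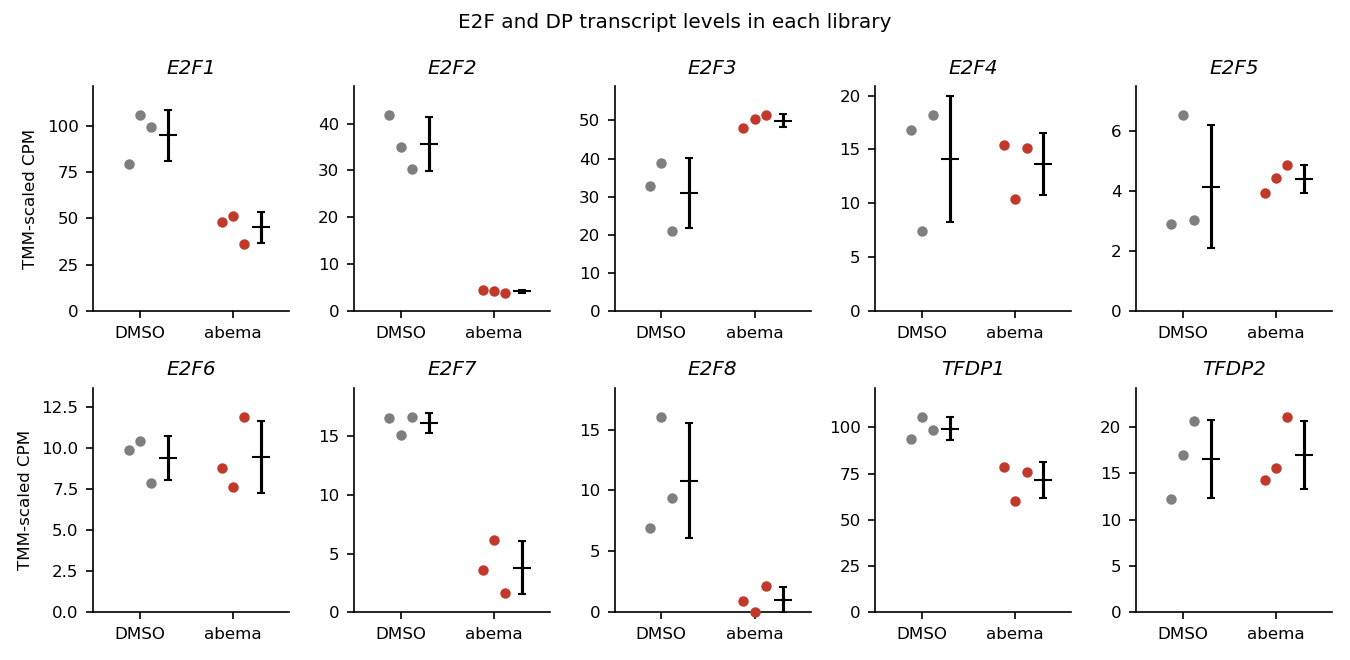
Level of each E2F and DP gene in TMM-scaled CPM (vertical axes, each starting at 0) in the 3 DMSO libraries (grey) and the 3 abemaciclib libraries (red), with the mean and SD as a black bar. The groups are apart for E2F1, E2F2, E2F3, E2F7, E2F8 and TFDP1 and overlap for E2F4, E2F5, E2F6 and TFDP2.

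E2F1, the founding member of the family and the best known partner of Rb, lies on chromosome 20 of GRCh38 from 33675477 to 33686385. It had 79.5, 105.7 and 99.7 CPM in the DMSO libraries and 47.8, 51.6 and 35.9 CPM in the abemaciclib libraries. All 3 abemaciclib libraries were lower, and the mean fell from 94.96 ± 13.75 CPM with DMSO to 45.1 ± 8.2 CPM with the drug (SD, n = 3 in each group), to 47.5% of the DMSO level. The log2 fold change was −1.07 (SE 0.15, adjusted P = 2.92e-06), and it stayed between −1.19 and −0.93 with each library left out in turn. E2F1 transcripts therefore remained well measured after 4 days of drug, with 500 counts over the 3 abemaciclib libraries beside 959 over the DMSO libraries.

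E2F2, another activator, lies on chromosome 1 from 23506438 to 23531233 and fell furthest among the activators. The DMSO libraries held 41.8, 35.1 and 30.3 CPM and the abemaciclib libraries 4.54, 4.19 and 3.78 CPM. The lowest DMSO library was thus far above the highest abemaciclib library. Its mean was 35.7 ± 5.8 CPM with DMSO and 4.17 ± 0.38 CPM with abemaciclib (SD, n = 3 in each group), or 11.7% of the DMSO level. The log2 fold change was −3.09 (SE 0.26, adjusted P = 2.24e-10), lower than that of all but 0.81% of the genes tested. By summed counts, 362 with DMSO and 46 with abemaciclib, the ratio was 8.60, with an exact 95% interval from 6.32 to 12 that covers counting error only.

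E2F3, the remaining activator, moved the other way. It lies on chromosome 6 from 20401879 to 20493714, and its transcripts from separate promoters, E2F3a and E2F3b, share a 3′ end, so these counts are of both. The DMSO libraries had 32.8, 38.9 and 20.9 CPM, and the abemaciclib libraries 48.1, 50.3 and 51.3 CPM. The abemaciclib libraries lay close together above the DMSO libraries, which were spread, with a coefficient of variation of 29.7% against 3.32%. Counting error alone is expected to give about 9.79% with DMSO and 7.37% with abemaciclib. The abemaciclib spread was below that value, which 3 libraries can show by chance. The mean rose from 30.9 ± 9.2 CPM with DMSO to 49.9 ± 1.7 CPM with abemaciclib (SD, n = 3 in each group), 1.62 times the DMSO level. The log2 fold change was 0.69 (SE 0.19, adjusted P = 0.00613). The call rests partly on DMSO replicate 3, the lowest library: without it the log2 fold change was 0.48 (adjusted P = 0.0576), and the other 11 alternatives kept the call.

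E2F4 and E2F5, the repressors that act through p107 and p130, showed no change that passed the test. E2F4, on chromosome 16 from 67192155 to 67198918, had 16.8, 7.43 and 18.2 CPM with DMSO and 15.4, 10.4 and 15.1 CPM with abemaciclib. The groups overlapped, and the lowest value of all was in a DMSO library, replicate 2. Its log2 fold change was −0.06, with a 95% interval from −0.68 to 0.56 (adjusted P = 0.919), and its sign turned when single libraries were left out. E2F5, on chromosome 8 from 85177154 to 85217158, was the least abundant member with DMSO, at 2.90, 6.54 and 3.03 CPM, and had 3.93, 4.44 and 4.86 CPM with abemaciclib. Its log2 fold change was 0.09, with an interval from −0.90 to 1.07 (adjusted P = 0.923). Exons of E2F5 overlap those of RBIS on the opposite strand over 670 bases. RBIS held 981 counts over the 6 libraries beside 91 for E2F5 and was lower with abemaciclib (log2 fold change −0.57, adjusted P = 0.0173), and since the strand setting of the counting is not given, the E2F5 values are uncertain.

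E2F6, the repressor that works without pocket proteins, lies on chromosome 2 from 11444375 to 11466177. It had 9.86, 10.4 and 7.88 CPM with DMSO and 8.77, 7.65 and 11.9 CPM with abemaciclib, with the lowest and the highest value both in the abemaciclib group. The log2 fold change was 0.0067, with a 95% interval from −0.66 to 0.67 (adjusted P = 0.992).

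E2F7 and E2F8, the atypical repressors, both fell. E2F7, on chromosome 12 from 77021248 to 77065569, had 16.5, 15.2 and 16.7 CPM with DMSO, the tightest DMSO values of any member. Their coefficient of variation, 5.2%, was below the 13.6% that counting error alone gives. With abemaciclib E2F7 had 3.63, 6.17 and 1.62 CPM, all lower and widely spread. Its mean was 16.1 ± 0.8 CPM and then 3.81 ± 2.28 CPM (SD, n = 3 in each group), and the log2 fold change was −2.05 (SE 0.37, adjusted P = 0.000105). Without abemaciclib replicate 2, the highest of its group, the log2 fold change was −2.62, and without abemaciclib replicate 3, the lowest, it was −1.69.

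E2F8, on chromosome 11 from 19224063 to 19241620, had 6.96, 16.0 and 9.39 CPM with DMSO. In the abemaciclib libraries it had 3, 0 and 8 counts, or 0.908, 0 and 2.16 CPM, and the library at 0 could have held up to 0.740 CPM. All 3 lay below the lowest DMSO library, and the mean was 10.8 ± 4.7 CPM with DMSO and 1.02 ± 1.09 CPM with abemaciclib (SD, n = 3 in each group). Its log2 fold change, −3.38 (SE 0.60, adjusted P = 8.84e-05), was the lowest in the family with all libraries. It was −2.76 without abemaciclib replicate 2 and −2.98 without DMSO replicate 2, where E2F2 was lower at −3.09 and −3.11, and −4.59 without abemaciclib replicate 3. By summed counts, 109 against 11, the ratio of DMSO to abemaciclib was 10.8, with an exact 95% interval from 5.82 to 22.3 that covers counting error only. The spread of the abemaciclib libraries was wider than counting gives, with a coefficient of variation of 106% against 52.2%.

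TFDP1, the main DP partner, lies on chromosome 13 from 113584721 to 113641473 and fell less than any other member that fell. It had 93.7, 105.7 and 98.4 CPM with DMSO and 78.7, 60.2 and 75.9 CPM with abemaciclib, so each abemaciclib library was lower. The mean was 99.3 ± 6.1 CPM with DMSO and 71.6 ± 10.0 CPM with abemaciclib (SD, n = 3 in each group), and the log2 fold change was −0.47 (SE 0.13, adjusted P = 0.00721). TFDP1 no longer passed when DMSO replicate 2 was left out (log2 fold change −0.43, adjusted P = 0.0527) or abemaciclib replicate 2 (−0.36, adjusted P = 0.0736). TFDP2, the other partner, on chromosome 3 from 141944428 to 142149544, had 12.2, 16.9 and 20.6 CPM with DMSO and 14.2, 15.5 and 21.1 CPM with abemaciclib. These groups overlapped almost fully, and the log2 fold change was 0.04, with a 95% interval from −0.49 to 0.56 (adjusted P = 0.942).

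**Figure D2:**
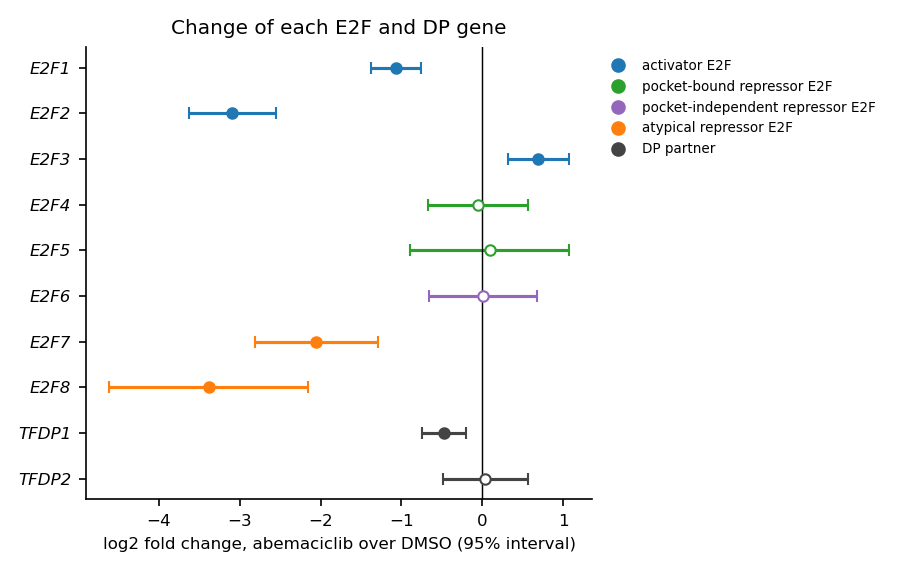
Log2 fold change of each gene, abemaciclib over DMSO (horizontal axis), with its 95% interval, coloured by class; filled points had an adjusted P under 0.05. E2F1, E2F2, E2F7, E2F8 and TFDP1 lie left of 0, E2F3 lies right of it, and the intervals of E2F4, E2F5, E2F6 and TFDP2 span 0.

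The order of the levels changed with the drug. With DMSO the mean levels ran from TFDP1 and E2F1, which overlapped, to E2F2 and E2F3, which overlapped each other but lay below E2F1. TFDP2, E2F7, E2F4, E2F8 and E2F6 followed, each overlapping its neighbour in this order, and E2F5 lay below E2F6 without overlap. With abemaciclib TFDP1 stood alone at the top, followed by E2F3 and E2F1, whose libraries overlapped. TFDP2, E2F4 and E2F6 came next, each overlapping its neighbour, then E2F5, E2F2, E2F7 and E2F8, again each overlapping the next. E2F2 moved from position 3 to position 8. The ratio of E2F1 to E2F3 was 2.42, 2.72 and 4.77 in the DMSO libraries and 0.994, 1.02 and 0.700 in the abemaciclib libraries, which did not overlap.

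Activators were set against repressors by adding their levels in each library, a description without a test. The summed level of E2F1, E2F2 and E2F3 was 162 ± 16 CPM with DMSO and 99.2 ± 7.6 CPM with abemaciclib (SD, n = 3 in each group). That of E2F4 to E2F8 was 54.6 ± 1.3 CPM and then 32.3 ± 3.5 CPM (SD, n = 3 in each group). Both sums were lower in every abemaciclib library, and in about the same proportion. The ratio of activators to repressors was 2.90, 3.24 and 2.74 with DMSO and 3.07, 3.71 and 2.55 with abemaciclib, so the groups overlapped, with the lowest and the highest ratio both in the abemaciclib group.

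Within each sum the make-up shifted. E2F3 held 15.8%, 16.5% and 10.1% of all E2F transcripts in the DMSO libraries and 36.1%, 37.4% and 40.5% in the abemaciclib libraries. E2F2 held 20.2%, 14.9% and 14.7% and then 3.41%, 3.11% and 2.99%. E2F1 held 43.9% ± 5.1 with DMSO and 34.2% ± 5.2 with abemaciclib (SD, n = 3 in each group). Among the repressors, E2F4 and E2F5 together held 33.6% ± 7.4 of the repressor transcripts with DMSO and 55.7% ± 3.8 with abemaciclib, while E2F7 and E2F8 together held 49.2% ± 6.2 and then 15.3% ± 5.6 (SD, n = 3 in each group). In absolute terms the summed level of E2F4 and E2F5 was 18.3 ± 3.8 CPM and 18.1 ± 2.8 CPM (SD, n = 3 in each group). Shares are bound to each other, so a larger share of a member need not mean a higher level of it.

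**Figure D3:**
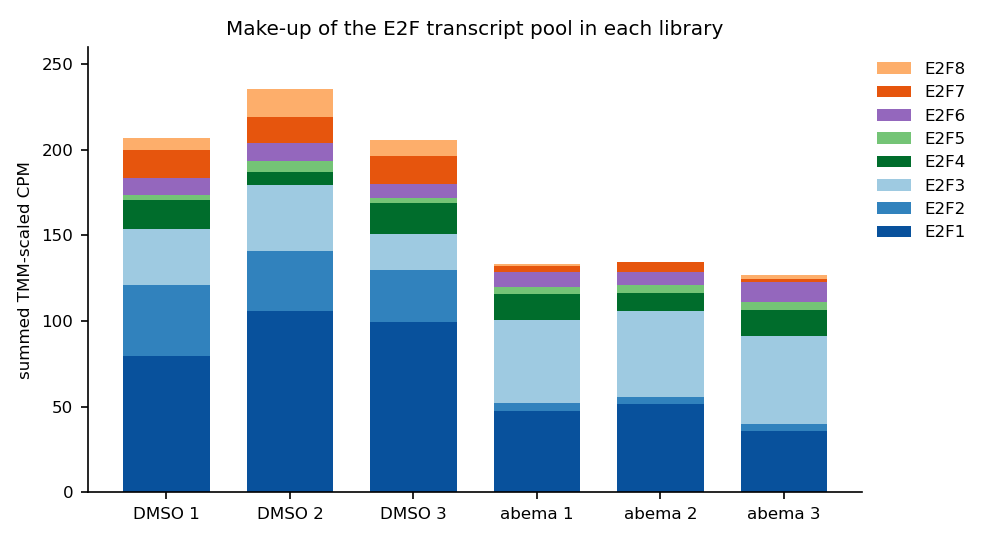
Summed TMM-scaled CPM of E2F1 to E2F8 in each library (stacked bars from 0), with blue for the activators, green for E2F4 and E2F5, purple for E2F6 and orange for E2F7 and E2F8. The DMSO bars reach 206 to 235 CPM and the abemaciclib bars 127 to 135 CPM, with E2F3 wider and E2F2, E2F7 and E2F8 narrower under abemaciclib.

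The promoters were then searched for E2F sites, since several E2F genes are known to be controlled by E2F. RefSeq windows on GRCh38.p14, from 250 bases before to 50 bases after a transcription start, were found for 8 of the 10 genes, in 11 windows; E2F5 and E2F8 had no entry. The E2F site was searched as TTTCCCGC or TTTGGCGC or TTTCGCGC or TTTGCCGC, on both strands. It was present in 4 of the 8 genes, E2F1, E2F2, E2F3 and TFDP1, or 4 of the 11 windows, and in 3.31% of all 35116 promoter windows. The background was not matched for GC content, which was 58.3% to 79.7% in the 4 windows with a match. These 4 genes include members that fell and the 1 that rose, and E2F7, which fell, had no match in its window. A match is a description of these letters and not evidence of binding. No E2F match overlapped a match of the other motifs searched, but in E2F7 a GC box overlapped a CCAAT box. The stretches around the matches are shown to let the sites of genes that moved in different directions be compared. Each is 60 bases, 5′ to 3′ on the strand of the gene, with the matched letters in capitals, and none of them overlaps an annotated UTR or coding exon. The E2F1 stretch is chr20:33686386-33686445 on the minus strand, and it holds a match on each strand. That of E2F2 is chr1:23531242-23531301 on the minus strand. That of E2F3, before the upstream start, is chr6:20401800-20401859 on the plus strand, and that of TFDP1 is chr13:113584607-113584666 on the plus strand.
E2F1: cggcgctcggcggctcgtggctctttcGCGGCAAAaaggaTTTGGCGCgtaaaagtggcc
E2F2: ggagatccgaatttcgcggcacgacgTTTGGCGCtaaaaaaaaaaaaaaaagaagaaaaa
E2F3: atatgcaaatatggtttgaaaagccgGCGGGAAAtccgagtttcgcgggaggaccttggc
TFDP1: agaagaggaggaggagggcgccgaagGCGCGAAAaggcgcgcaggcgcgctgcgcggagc

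E2F1 and E2F2, both lower, share the letters TTTGGCGC on the strand of the gene, and E2F1 has a further match on the opposite strand. The matches of E2F3, which rose, and TFDP1, which fell, lie on the opposite strand, so strand did not follow the direction of change. The letters TTTCGCGG, which were not searched, stand on the strand of the gene in the stretches of E2F1, E2F2 and E2F3. The match of E2F3 starts 53 bases before its upstream start, and its downstream window had none. The CCAAT box, bound by NF-Y and frequent in cell cycle promoters, was searched as CCAAT on both strands. It was present 3 times in E2F1, 4 times in the upstream window of E2F3, 4 times in E2F7 and 2 times in the first window of TFDP2, and in 34.6% of all windows. The CHR element, through which the DREAM complex is tethered at genes of later cell cycle phases, was searched as TTTGAA or TTCGAA on both strands and was present in 16.4% of all windows. Among the members it was present in the upstream window of E2F3 and in 2 windows of TFDP2. The GC box was searched as GGGCGG on both strands and was present in 45.0% of all windows, and every matched gene but E2F2 had it in at least 1 window.

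**Figure D4:**
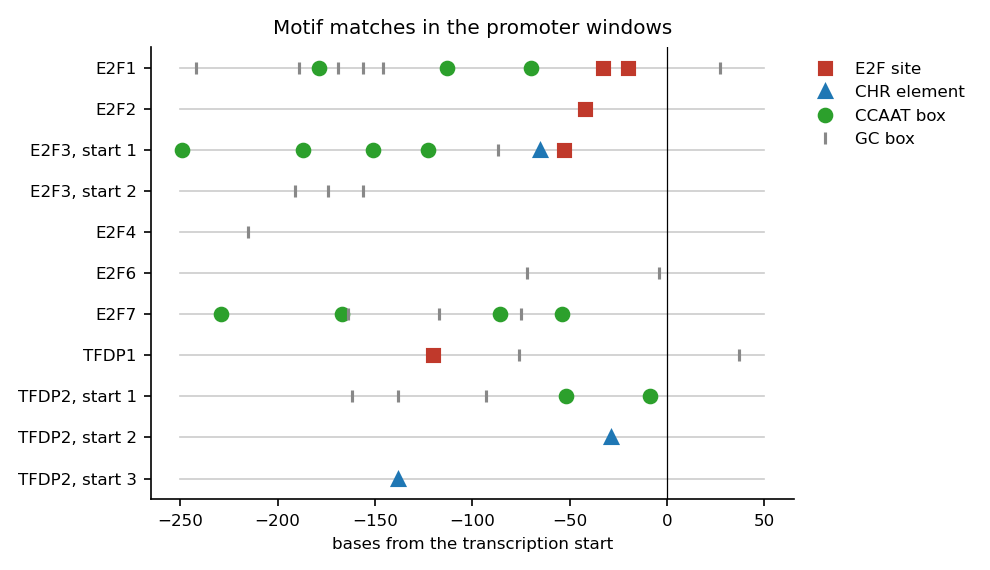
Start of each motif match (E2F site, red squares; CHR element, blue triangles; CCAAT box, green circles; GC box, grey bars) in each promoter window, by distance in bases from the transcription start (horizontal axis). The E2F sites lie within 120 bases before the start, in E2F1, E2F2, the upstream start of E2F3, and TFDP1.

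The genes with which the E2F factors work were described through lists written from general knowledge, with earlier results of these data known. Their counts are set beside the shares of all genes tested, 13.3% lower and 12.5% higher, and the median log2 fold change of all genes tested, −0.0018. The first list held 9 genes, the pocket proteins, MuvB subunits and MYBL2, of which 8 were tested and LIN37 had 0 counts in every library. Exons of LIN37 overlap those of another gene on the same strand over 549 bases, so its 0 counts need not mean absence. By edgeR 3 of the 8 fell (13.3% of all genes tested) and 0 rose (12.5%), around a median log2 fold change of −0.16. DESeq2 also gave 3 lower and 0 higher, and RBL2 was the 1 gene higher at an unadjusted P under 0.05. RB1 had 64.7, 52.6 and 51.5 CPM with DMSO and 32.4, 36.5 and 33.0 CPM with abemaciclib, all lower (log2 fold change −0.73, adjusted P = 0.00104). RBL1, which encodes p107 and is itself an E2F target, fell with a log2 value of −1.34 (adjusted P = 0.00820). RBL2, which encodes p130, the pocket protein of resting cells, had 13.9, 19.0 and 17.0 CPM with DMSO and 21.5, 25.2 and 27.3 CPM with abemaciclib. Its groups did not overlap, but its log2 fold change of 0.57 did not pass the test (adjusted P = 0.0579), and its exons overlap AKTIP on the opposite strand. MYBL2, the B-MYB factor that joins MuvB once DREAM comes apart, had 344.1 ± 36.5 CPM with DMSO and 68.8 ± 21.6 CPM with abemaciclib (SD, n = 3 in each group; log2 fold change −2.32, adjusted P = 6.07e-13). Of the other MuvB genes tested, LIN9, LIN52, LIN54 and RBBP4, none passed the test.

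Of 12 genes of the E2F6 complex and its corepressors, 0 were lower and 0 higher by edgeR, against 25.7% of all genes tested that changed in either direction, with log2 fold changes from −0.32 to 0.30. At an unadjusted P under 0.05, 2 were lower, CBX3 and HDAC2, and 0 higher, and DESeq2 called 0 in either direction. Of 15 regulators of E2F protein, 7 fell (13.3% of all genes tested) and 0 rose (12.5%) by edgeR, around a median log2 fold change of −0.54. DESeq2 gave 6 lower and 0 higher, and SETD7 was the 1 gene higher at an unadjusted P under 0.05. CCNF, the cyclin F subunit of an SCF ligase that marks E2F proteins for destruction, had a log2 change of −1.97 (adjusted P = 3.06e-11). CCNA2, the cyclin A2 partner of CDK2 that phosphorylates E2F1 to E2F3, had a log2 fold change of −5.17, but its exons overlap EXOSC9 on the opposite strand. CDC20, an activator of the APC/C ligase, had −2.24, and CHEK1, a checkpoint kinase, −1.39.

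Of 34 G1/S genes that E2F factors are known to drive, 28 were lower (13.3% of all genes tested) and 0 higher (12.5%) by edgeR, around a median log2 fold change of −1.36. None was higher at an unadjusted P under 0.05 either, and DESeq2 also gave 28 lower and 0 higher. The genes CHEK1, RBL1 and MYBL2 are also in the lists above, and without them 25 of 31 were lower. TYMS, the thymidylate synthase, had 81.0 ± 5.4 CPM with DMSO and 1.20 ± 0.70 CPM with abemaciclib (SD, n = 3 in each group; log2 fold change −6.06), with exons that overlap ENOSF1 on the opposite strand. CCNE2, a cyclin E, had 148 counts over the DMSO libraries and 3 over the abemaciclib libraries, a ratio of 53.9 with an exact 95% interval from 18.1 to 265 that covers counting error only. Its exons overlap INTS8 on the opposite strand. RRM2, a ribonucleotide reductase subunit, had a log2 fold change of −4.90, and CDC45, part of the replicative helicase, −2.77. Among those that did not pass, the log2 fold changes ran from −1.08 for ORC1, which helps to load the replicative helicase, to −0.20 for MCM3, a subunit of it.

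Of 9 apoptosis genes that E2F1 can activate, 2 fell, 1 rose and 6 did not pass the test, a share called that is near the 25.7% of all genes tested. TP73, a relative of p53, had a log2 fold change of −2.20, and BBC3, which encodes PUMA, −2.15. BID, a BH3-only protein, rose by 0.62 on the log2 scale (adjusted P = 0.0187). TP73 overlaps the antisense gene TP73-AS1, so its value is uncertain.

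**Figure D5:**
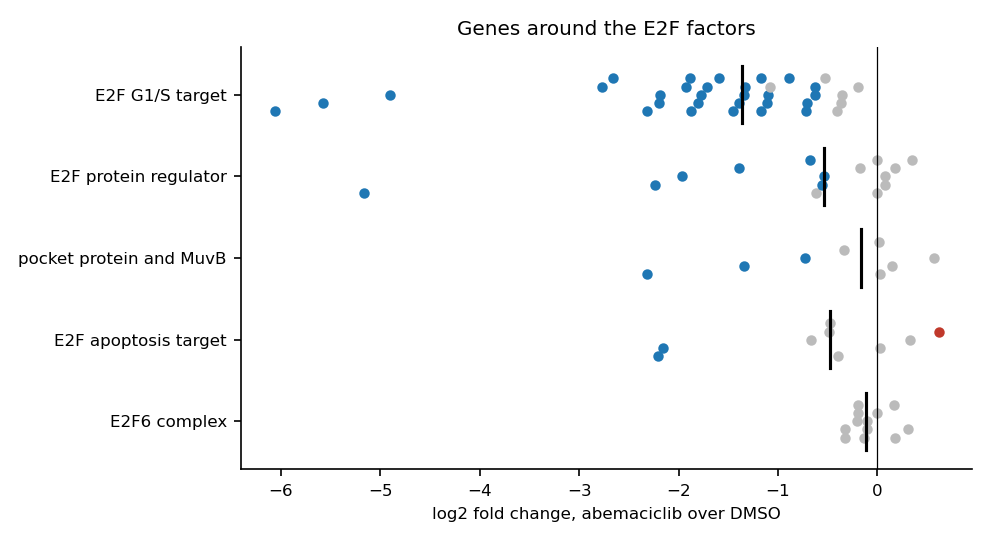
Log2 fold change of each tested gene of the 5 lists, abemaciclib over DMSO (horizontal axis), in blue where lower and red where higher at an adjusted P under 0.05 and grey otherwise, with the median of the list as a black line. The G1/S targets lie at a median of −1.36 and the E2F6 complex genes between −0.32 and 0.30.

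Genes were also ranked by how closely their level followed that of a member over the 6 libraries, as the Euclidean distance between centred log2 CPM values, among 9738 genes with a mean of at least 5 CPM. For E2F1 the nearest was POLD3, a subunit of DNA polymerase delta, at a distance of 0.182, followed by RTKN2, DSC2, MT-TS1 and ZCWPW1. For E2F4 it was ERMARD at 0.188, followed by EMC3-AS1, GPATCH3, TSC22D2 and IPO13. For E2F8, with 0 to 54 counts a library, it was ARHGEF39 at 1.06, followed by ZDHHC2, SLCO3A1, GPRC5A and KIFC1. The distance is taken over both groups, so the nearest genes share the fold change of the member by construction.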

How the data were processed

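A total of 6 3′ mRNA libraries of parental ZR-75-1 cells were used, 3 per group, grouped by their labels. The authors removed adapters and low-quality bases from single-end reads (BBDuk), mapped the reads to hg38 (STAR 2.7.5b), counted them per gene (featureCounts 2.0.1, GENCODE release 35) and deposited raw counts with no normalization. Whether counting used the strand is not given in the sources used here, nor are molecular identifiers. Coordinates and exon overlaps are from GENCODE release 44 on GRCh38; 60445 of 60656 identifiers matched a symbol.

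Abemaciclib was compared with DMSO in R 4.3.3 with edgeR 4.0.16: filterByExpr, which left 10863 genes, TMM scaling, glmQLFit, glmQLFTest and Benjamini–Hochberg adjustment over all genes tested at 0.05. The standard error is the log2 fold change divided by the square root of F. The biological coefficient of variation was 13.2%, and total counts of 3317860 to 4013156 set the precision. The fit was first tested on simulated data. Alternatives were DESeq2 1.42.0, its size factors in edgeR, total counts, no filter, at least 10 counts in every library, a replicate block, and each library left out.

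The members and gene lists were chosen with earlier results of these data known. The genes named are all members, the 4 largest called changes per list, RB1, RBL1 and RBL2, and the 5 nearest genes to E2F1, E2F4 and E2F8; any further gene was picked for naming once its value was known.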

Additional observations from a re-analysis of the deposited data

How the results depend on the processing

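Of 215 values under an alternative, 194 were labelled the same. For single genes this meant the same direction and call. A count of genes or a median could differ and keep the label. With at least 10 counts in every library, for example, 24 G1/S targets were lower in place of 28. With at least 10 counts in every library, 3 E2F and DP genes and 0 repressors were lower, since E2F7 and E2F8 were no longer tested. Leaving out 1 library gave 4 to 5 E2F and DP genes lower and 0 to 1 higher, a log2 fold change of 0.48 to 0.89 for E2F3 and −0.54 to −0.36 for TFDP1. It also gave ranges on both sides of 0 for genes that were never called: −0.37 to 0.16 for E2F4, −0.12 to 0.57 for E2F5, −0.19 to 0.15 for E2F6 and −0.15 to 0.22 for TFDP2. The repressor median ran from −0.37 to 0.0877. The sign of E2F6 turned to −0.0113 with total counts only, −0.0012 with at least 10 counts in every library and −0.0046 with the replicate block. Libraries with the same replicate number did not deviate together (correlations −0.04, 0.0070 and −0.09), so the numbers were not taken as pairs. The replicate block changed no call of an E2F or DP gene, with 5 lower and 1 higher, and gave 28 lower and 0 higher among the G1/S targets. On the given strand only, 2 of the 8 genes with a promoter entry had an E2F site. Depth limits E2F5 and E2F8, with 91 and 120 counts in all.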
